A study of Mus musculus with 6 samples.

Results

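Heat shock factor 1 (HSF1) and the chaperones it controls were examined as a set of 40 genes, out of 23268 genes in the expression table. The genes were picked by symbol as cytosolic and mitochondrial chaperones, co-chaperones and HSF factors, a rule that uses no measured value. The set was nevertheless chosen with earlier results of these data known. They were sorted into 9 classes: HSP90 (2 genes), HSP70 (8), HSP40 (7), HSP60/10 (2), small heat shock proteins (3), the chaperonin CCT (7), HSP70 co-chaperones (4), HSP90 co-chaperones (5) and HSF factors (2). All 40 symbols were found, and 38 had a mean of at least 1 FPKM (fragments scaled to gene length and library depth) over all libraries, the level needed to enter the test. The other 2, Hspb8 and Cryab, lay between 0 and 2.48 FPKM and were not tested. None of the 38 passed only through its high group, since each had a mean above 1 FPKM in both groups.

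Group 2 innate lymphoid cells (ILC2s) are lymphocytes that reside in barrier tissues and make type 2 cytokines without an antigen receptor. Colonic ILC2s were isolated by sorting from C57BL/6 mice of 6 to 8 weeks, which had received plain water (control, 3 libraries) or 3% dextran sulfate sodium (DSS, 3 libraries), a chemical that injures the colonic epithelium, for 6 days. Full-length cDNA was sequenced, and the values are deposited FPKM. The labels name no mutant allele or other agent and do not say whether a library came from 1 mouse or from a pool, so that p-values measure only the spread between these libraries, which may be technical.

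Chaperones bind unfolded or newly made proteins and keep them from aggregating. HSP40 proteins deliver clients to HSP70, which folds them in cycles of ATP hydrolysis, and HSP90 completes the folding of kinases and steroid receptors. In a resting cell HSF1 is held inactive by chaperones. When unfolded proteins draw the chaperones away, HSF1 forms a trimer and binds heat shock elements, arrays of inverted GAA units in the promoters of inducible chaperone genes. Constitutive members such as Hspa8 and the CCT genes are made without stress, whereas Hspa1a, Hspa1b, Hspb1 and Dnajb1 are known as strongly inducible.

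The elements themselves are shown first, because the inducible members differ in how many they carry. The RefSeq promoter windows (GRCm38.p6, 250 bases before to 50 after the start site) were available for 32 of the 40 genes. The 3-unit element was searched as GAANNTTCNNGAA or TTCNNGAANNTTC, which covers both strands, with units 2 bases apart. The 2-unit element was searched as GAANNTTC or TTCNNGAA, and lies inside every 3-unit match. In the sequences below, capitals mark the matches and positions count from 0 at the start site. Hspb1, the member with the largest change, is shown with its whole upstream stretch and 2 separate 2-unit matches. Hspe1, Hsph1, Chordc1 and Dnajb6 are shown with their 3-unit matches, from −89 to −72, 36 to 48, −4 to 18 and −46 to −34 in that order.
Hspb1, chr5:135887669-135887918, plus strand: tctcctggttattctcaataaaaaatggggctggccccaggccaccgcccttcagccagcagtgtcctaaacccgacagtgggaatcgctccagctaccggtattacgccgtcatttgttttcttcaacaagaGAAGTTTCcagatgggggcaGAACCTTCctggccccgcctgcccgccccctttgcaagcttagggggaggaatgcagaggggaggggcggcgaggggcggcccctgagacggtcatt
Hspe1, chr1:55088053-55088082, plus strand: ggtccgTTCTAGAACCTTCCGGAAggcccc
Hsph1, chr5:149636287-149636308, minus strand: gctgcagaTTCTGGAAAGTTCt
Chordc1, chr9:18292260-18292288, plus strand: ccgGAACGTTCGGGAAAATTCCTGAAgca
Dnajb6, chr5:29735844-29735872, plus strand: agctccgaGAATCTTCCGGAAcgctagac

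Of the 6 libraries, 3 stood apart from the rest in ways the groups do not explain. Depth ran from 9962415 to 23119390 fragments per library. The 2 replicates numbered 3 had values above 0 for 21647 (control) and 22153 (DSS) genes, against 15809 to 19290 in the other 4 libraries, although they were the shallowest. DSS replicate 1 differed from the controls by gene length. Among genes with a mean of at least 20 FPKM, its median departure from the control mean was 0.85 (log2) for 378 genes under 1 kb and −0.59 for 216 genes over 5 kb. The same medians were 0.09 and −0.17 in DSS replicate 2, −0.34 and −0.10 in DSS replicate 3, and between −0.11 and 0.08 in every control. Of the ILC2 markers, 14 of 15 were expressed in DSS, Id2 highest, with a summed level of 5842 to 6616 FPKM in control and 4215 to 6572 in DSS libraries. Of the 14 that were tested, 7 were separate downward and 0 upward, beside 9.6% and 6.35% of all tested genes. The median log2 change of the 14 was −0.52. Il5, which encodes a type 2 cytokine, was the 1 called, downward (limma adjusted p = 0.000866). Ptgdr2, a receptor gene also used as an ILC2 marker, measured 0 to 0.885 FPKM in every library. In the fit of all 12187 tested genes, 27 genes passed a limma adjusted p of 0.05, which is 0.222% (9 higher in DSS, 0.0738%, and 18 lower, 0.148%). After median-of-ratios scaling these were 5 higher and 4 lower.

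In ILC2s from DSS mice, 2 chaperone genes were called higher. Among the 38 tested members, these 2 passed the test, both upward (against the 0.0738% of all genes called higher): Hspb1, the small heat shock protein HSP25 of the mouse, and Dnajb1, the HSP40 partner of inducible HSP70. With the replicate number as a block, Hspb1 alone passed. No member passed downward, and 15 of the 38 had an unadjusted p under 0.05, beside 8.99% of all tested genes. In 13 members every DSS library lay above every control library, 34.2% of the 38 against 6.35% of all tested genes. In 7 members every DSS library lay below every control library, 18.4% against 9.6%. Because the members were chosen with earlier results of these data known, these shares are a description and not an independent test. Among the 2698 genes with a mean of at least 20 FPKM, a level chosen after the values were seen, 7.64% were separated upward and 21.6% downward. The members' shares of 34.2% and 18.4% were not restricted to that level. The median log2 change of the 38 was 0.14, beside 0.03 for all tested genes. A log2 change is the DSS mean minus the control mean of log2(FPKM + 1), given with its standard error from limma and n = 3 libraries per group. In RNA from sorted bulk cells, a change in the number of cells that express a gene and a change of RNA per cell cannot be told apart.

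**Figure D1:**
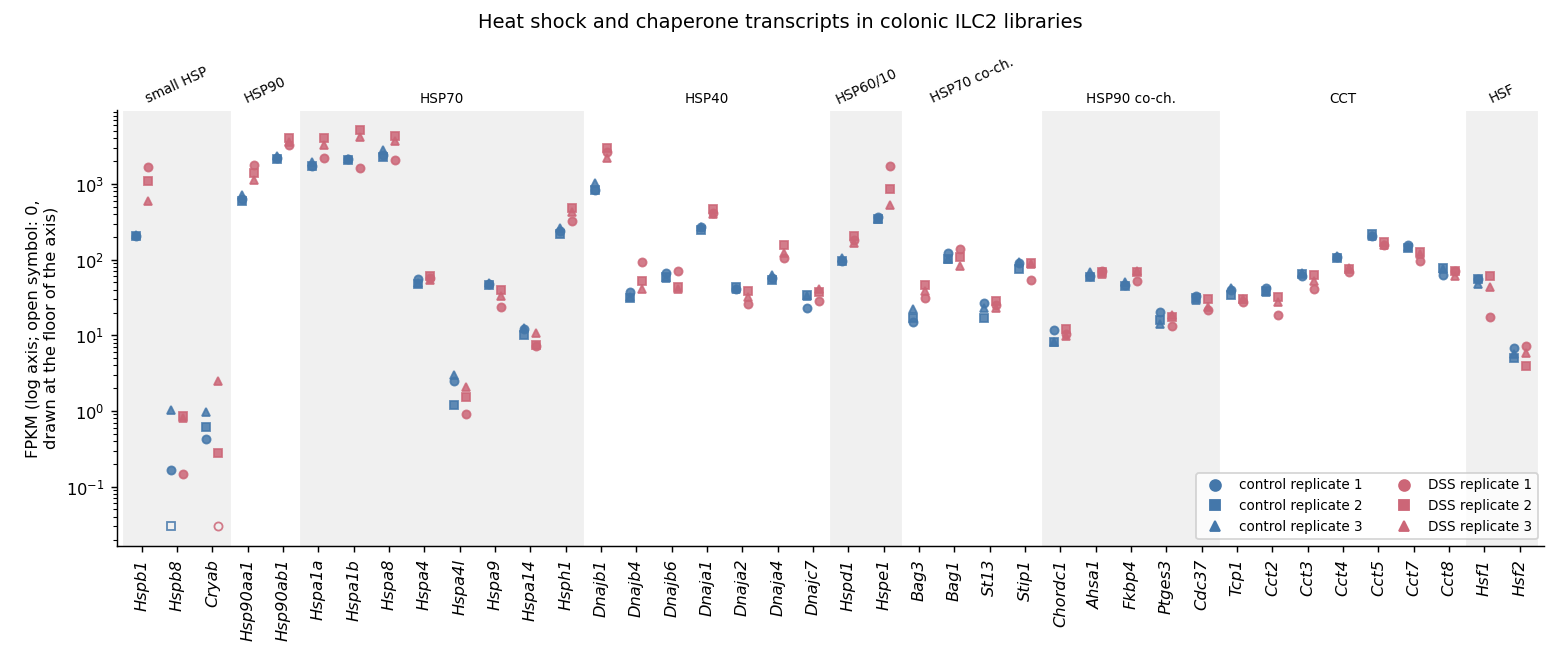
FPKM (log axis) of all 40 genes by class in each of the 6 libraries, blue for control and red for DSS, with a symbol per replicate number and open symbols for a value of 0. The 3 control points of Hspb1 lie at 204 to 210 FPKM and the 3 DSS points at 601 to 1677, whereas the points of Hspa1b and Hspa8 overlap because DSS replicate 1 lies lowest.

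**Figure D2:**
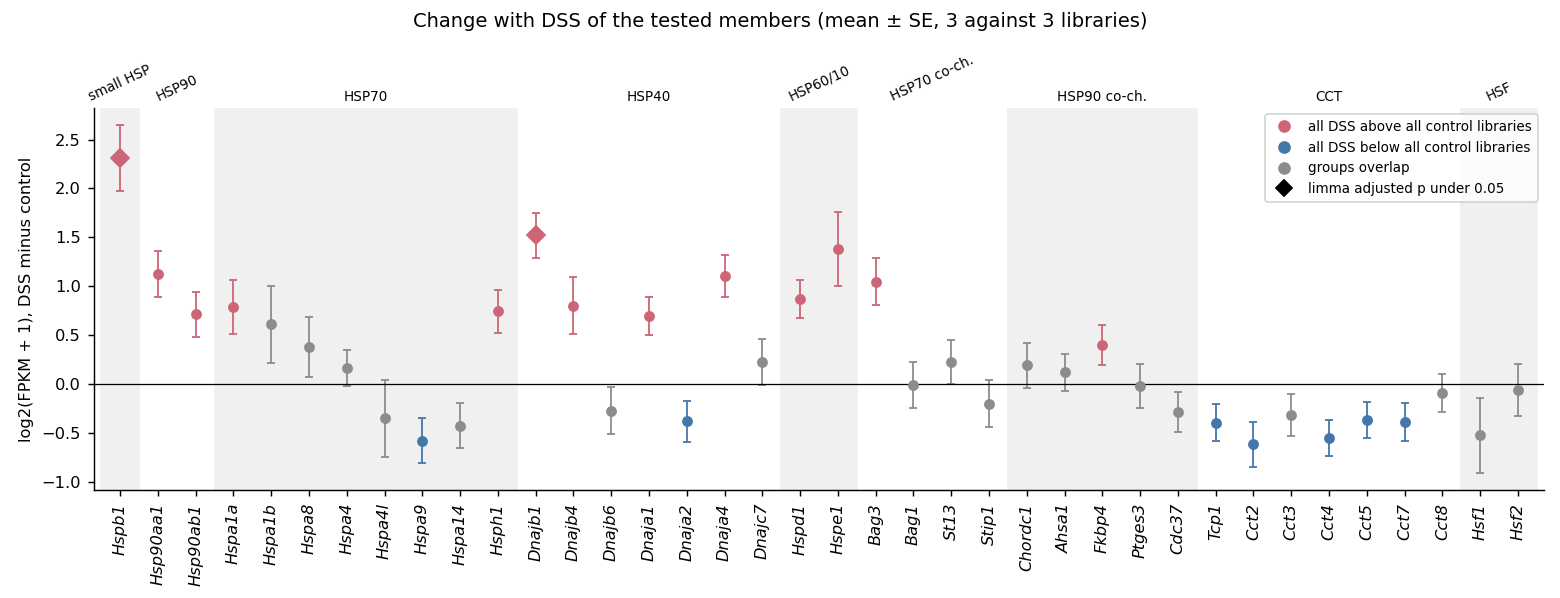
Log2 change (DSS minus control, mean ± SE from limma, 3 libraries per group) of the 38 tested genes by class, coloured by whether the 3 DSS libraries all lie above (red) or below (blue) the 3 controls or overlap them (grey). Diamonds mark the 2 genes with an adjusted p under 0.05, Hspb1 at 2.31 and Dnajb1 at 1.52, and all 7 CCT genes lie below 0.

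Small heat shock proteins hold unfolded proteins without using ATP, and Hspb1 was the member that changed most. It measured 204, 206 and 210 FPKM in control replicates 1, 2 and 3 and 1677, 1082 and 601 FPKM in DSS replicates 1, 2 and 3. The controls were nearly equal, and the lowest DSS library was 2.86 times the highest control, but the DSS libraries themselves spanned 2.79-fold. The mean rose 5.43-fold, from 206 ± 3.27 to 1120.0 ± 539 FPKM (SD, n = 3), with a log2 change of 2.31 ± 0.335 SE (limma adjusted p = 0.0426). The gene lies at chr5:135887919-135889563 on the plus strand (GRCm38) and has 2 matches to the 2-unit element in its window. At 0.94 kb it was the shortest member, and its DSS values ran highest in DSS replicate 1, the library in which short genes were high. Without that library the log2 change was 1.96 and passed the test. With each library's values centred by gene length, an alternative added after seeing the data, it was 1.88 with an adjusted p of 0.148, and 1.88 with a passing test when the replicate block was added. Over 21 alternatives the log2 change of Hspb1 ran from 1.88 to 2.71 and its adjusted p from 6.14e-08 to 0.373, under 0.05 in 12. Leaving out DSS replicate 2 or any 1 control ended the call (adjusted p = 0.162 to 0.373).

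The HSP40 class held the second called gene. Dnajb1, which stimulates the ATPase of HSP70, measured 833, 840 and 1045 FPKM in controls and 2628, 2971 and 2221 FPKM in DSS libraries. All 3 DSS libraries were at least 2.12 times the highest control, and they spanned only 1.34-fold. The mean rose from 906 ± 121 to 2607 ± 376 FPKM (SD, n = 3), with a log2 change of 1.52 ± 0.233 SE (limma adjusted p = 0.0426). It lies at chr8:83608193-83612653 on the plus strand (GRCm38). Unlike Hspb1 it is 3.03 kb long, and genes of 3 to 5 kb had a median departure of −0.55 in DSS replicate 1. Centring by gene length ended the call of Dnajb1 (log2 change 1.59, limma adjusted p = 0.0937; with the replicate block added, 0.0596). Its log2 change stayed between 1.33 and 1.76 over the 21 alternatives, but its adjusted p ran from 3.86e-07 to 0.504 and was under 0.05 in 9. With the replicate number as a block the log2 change was 1.52 and the adjusted p 0.0861. Leaving out DSS replicate 2 or any 1 control also ended the call (adjusted p = 0.202 to 0.504). Its 2 promoter windows held no match to either element.

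Dnaja4, another HSP40 gene known to respond to heat, measured 57.3, 53.7 and 62.1 FPKM in controls and 104, 155 and 121 FPKM in DSS libraries. The groups were separate (log2 change 1.10 ± 0.211 SE), but the adjusted p by limma was 0.0991. It shares 1581 exonic bases with Wdr61 on the opposite strand, and the library kit does not keep the strand, so reads of the pair cannot be told apart in that stretch. Dnaja1, the abundant cytosolic HSP40 of the A type, measured 268, 244 and 273 FPKM in controls and 412, 468 and 397 FPKM in DSS libraries. Its groups were separate too (log2 change 0.70 ± 0.194 SE, limma adjusted p = 0.226). Dnaja1 shares 608 exonic bases with Smu1 on the opposite strand, so the same limit holds for that stretch. Dnajb4, a relative of Dnajb1, measured 37.4, 31.2 and 31.8 FPKM in controls and 93.7, 52.7 and 41.0 FPKM in DSS libraries. Here DSS replicate 1 stood above the other 2, and the log2 change of 0.80 ± 0.291 SE (limma adjusted p = 0.41) was 0.47 without it. Dnaja2, a constitutive A-type gene, lay lower in DSS and measured 40.7 to 42.9 FPKM in controls and 25.9 to 38.2 in DSS libraries, with no overlap. Dnajb6 and Dnajc7 overlapped between the groups. Within a library the ratio of Dnajb1 to Dnaja2, which does not depend on how libraries are scaled, was 20.4, 19.6 and 25.7 in controls and 101, 77.8 and 69.7 in DSS libraries.

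The HSP70 genes differed among themselves. Hspa1a, an inducible HSP70, measured 1740.1, 1729 and 1940.1 FPKM in controls and 2237, 4087 and 3296 FPKM in DSS libraries. The groups did not overlap, and DSS replicate 1 was closest to the controls (log2 change 0.79 ± 0.274 SE, limma adjusted p = 0.372). Hspa1b, its neighbour on chromosome 17, measured 2156, 2066 and 2165 FPKM in controls and 1619, 5122 and 4139 FPKM in DSS libraries. In that gene DSS replicate 1 lay below every control, so the groups overlapped. The transcripts of both genes were identical at 99.14% of 2200 aligned bases, and how reads that match both were counted is not given in the sources used here, so the split between them is uncertain. Hspa1a also shares 564 exonic bases with Gm20481 on the opposite strand. Their summed level was 3896, 3795 and 4106 FPKM in controls and 3856, 9209 and 7435 FPKM in DSS libraries, which overlapped.

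Hspa8, the constitutive HSP70 and the highest member of its class on average, measured 2393, 2258 and 2785 FPKM in controls and 2066, 4278 and 3718 FPKM in DSS libraries. It overlapped through the same library. The summed inducible pair over Hspa8 was 1.63, 1.68 and 1.47 in controls and 1.87, 2.15 and 2.00 in DSS libraries, with no overlap. Hsph1, the HSP110 that exchanges nucleotide on HSP70, measured 242, 219 and 262 FPKM in controls and 321, 483 and 423 FPKM in DSS libraries. All DSS libraries were above the controls (log2 change 0.75 ± 0.221 SE, limma adjusted p = 0.278). Hspa9, the mitochondrial HSP70, went the other way. It measured 47.5, 46.0 and 49.0 FPKM in controls and 23.7, 39.9 and 33.1 FPKM in DSS libraries, with no overlap (log2 change −0.58 ± 0.227 SE, limma adjusted p = 0.46). The change was −0.38 without DSS replicate 1 and −0.24 with library weights. Hspa4, Hspa4l and Hspa14 overlapped between the groups.

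Both cytosolic HSP90 genes were higher in every DSS library. Hsp90aa1, the stress-inducible isoform, measured 639, 603 and 707 FPKM in controls and 1788, 1395 and 1135 FPKM in DSS libraries. The lowest DSS library was 1.60 times the highest control (log2 change 1.13 ± 0.238 SE, limma adjusted p = 0.132). The constitutive isoform Hsp90ab1 measured 2188, 2108 and 2376 FPKM in controls and 3280, 4084 and 3618 FPKM in DSS libraries. Its groups were also separate (log2 change 0.72 ± 0.231 SE, limma adjusted p = 0.334), with a change of 0.41 after quantile normalization. Neither gene passed, though Hsp90aa1 passed after quantile normalization (adjusted p = 0.0423; 4.39e-06 to 0.698 over the 21 alternatives). The ratio of Hsp90aa1 to Hsp90ab1 was 0.292, 0.286 and 0.298 in controls and 0.545, 0.342 and 0.314 in DSS libraries, so that the inducible isoform took a larger part in each, most in DSS replicate 1.

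The mitochondrial HSP60/10 pair, which folds proteins in the matrix as a closed chamber and its lid, is transcribed in opposite directions from RefSeq start sites 216 bases apart on chromosome 1. Hspe1, the lid (HSP10), measured 370, 346 and 346 FPKM in controls and 1754, 846 and 525 FPKM in DSS libraries. Its DSS libraries spanned 3.34-fold, all above the controls (log2 change 1.38 ± 0.379 SE, limma adjusted p = 0.222). Like Hspb1 it is short, at 0.98 kb, and without DSS replicate 1 the log2 change was 0.91. Hspd1, the chamber (HSP60), measured 96.4, 96.0 and 107 FPKM in controls and 179, 205 and 166 FPKM in DSS libraries. These libraries were separate and close together (log2 change 0.87 ± 0.191 SE, limma adjusted p = 0.136). The pair thus differed in order, with Hspe1 highest in DSS replicate 1 and Hspd1 highest in DSS replicate 2. In GENCODE M21, whose models reach past these start sites, they share 112 exonic bases on opposite strands. It names 6 pseudogenes of Hspe1 and 5 of Hspd1, so that their reads are not all certain.

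Of the 9 co-chaperone genes, 2 were separate between the groups, both upward. Of all tested genes, 6.35% were separate upward and 9.6% downward, and with so few co-chaperones no class result is read from the count. Bag3, which links HSP70 to autophagy and is a known HSF1 target, measured 14.9, 17.2 and 22.4 FPKM in controls and 30.9, 46.4 and 38.5 FPKM in DSS libraries. The groups were separate (log2 change 1.05 ± 0.236 SE, limma adjusted p = 0.144). Bag1, another nucleotide exchange factor and the highest gene of the HSP70 co-chaperones, measured 122, 101 and 102 FPKM in controls and 139, 107 and 83.1 FPKM in DSS libraries, which overlapped. St13 and Stip1, also co-chaperones of HSP70, overlapped as well. Of the HSP90 co-chaperones only Fkbp4, an immunophilin of steroid receptor complexes, was separate, at 45.4 to 50.9 FPKM in controls and 52.0 to 69.9 in DSS. Ahsa1, the activator of the HSP90 ATPase, measured 60.5, 59.1 and 68.7 FPKM in controls and 70.6, 69.5 and 64.4 FPKM in DSS libraries. Chordc1, Ptges3 and Cdc37 overlapped too.

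The CCT chaperonin, an ATP-driven ring that folds actin and tubulin, had lower values in DSS for all 7 of the subunit genes in the set, with a median log2 change of −0.39. That median was 0.03 for all tested genes and −0.10 for the 2698 with a mean of at least 20 FPKM, a level that all 7 exceed. The subunit genes Cct6a and Cct6b, outside the set, overlapped between the groups, Cct6a at 20.5 to 26.8 FPKM in controls and 23.7 to 26.1 in DSS libraries. None passed the test, and 5 of the 7 were separate between the groups, beside the 9.6% of all tested genes and 21.6% of the more abundant ones given above. Cct4 measured 107, 105 and 113 FPKM in controls and 69.0, 76.1 and 76.5 FPKM in DSS libraries. Its DSS libraries spanned 1.11-fold, beside 1.08-fold in controls (log2 change −0.55 ± 0.182 SE, limma adjusted p = 0.346). Cct2 measured 41.9, 38.9 and 37.7 FPKM in controls and 18.8, 31.7 and 27.3 FPKM in DSS libraries (log2 change −0.62 ± 0.229 SE, limma adjusted p = 0.419). Cct5, the most abundant CCT transcript, measured 203, 216 and 203 FPKM in controls and 158, 169 and 155 FPKM in DSS libraries. Tcp1 and Cct7 were separate as well, and Cct3 and Cct8 overlapped. Of the 7, Cct2 and Cct5 are 1.98 and 1.87 kb long, and all genes of 1 to 2 kb had a median departure of 0.27 in DSS replicate 1. The other 5 are 2.42 to 3.46 kb long, where that median was −0.34 (2 to 3 kb) or −0.55 (3 to 5 kb). The median of the 7 was −0.36 without that library and −0.33 with values centred by gene length.

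The transcripts of the factors themselves did not separate. Hsf1 measured 54.7, 54.7 and 47.1 FPKM in controls and 17.3, 60.2 and 43.7 FPKM in DSS libraries, so that 1 DSS library was far below and 1 above all controls. Hsf2 measured 5.06 to 6.79 FPKM in controls and 3.88 to 7.25 in DSS. HSF1 is known to be switched on as a protein, which these values do not measure.

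As a share of the summed FPKM of all genes, the 40 genes took 2.81% ± 0.208 of control libraries and 4.78% ± 1.15 of DSS libraries (SD, n = 3), with no overlap (2.64% to 3.05% against 3.51% to 5.74%). HSP90 took 0.630% ± 0.0490 and 1.08% ± 0.137, and HSP40 took 0.305% ± 0.0326 and 0.702% ± 0.103. The HSP70 class was the largest in controls, at 1.48% ± 0.117, and measured 1.15%, 3.04% and 2.75% in DSS replicates 1, 2 and 3, which overlapped. HSP60/10 took 0.0995% ± 0.00287 and 0.247% ± 0.0960, and CCT took 0.149% ± 0.00362 and 0.111% ± 0.0200. No test was run on these shares.

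**Figure D3:**
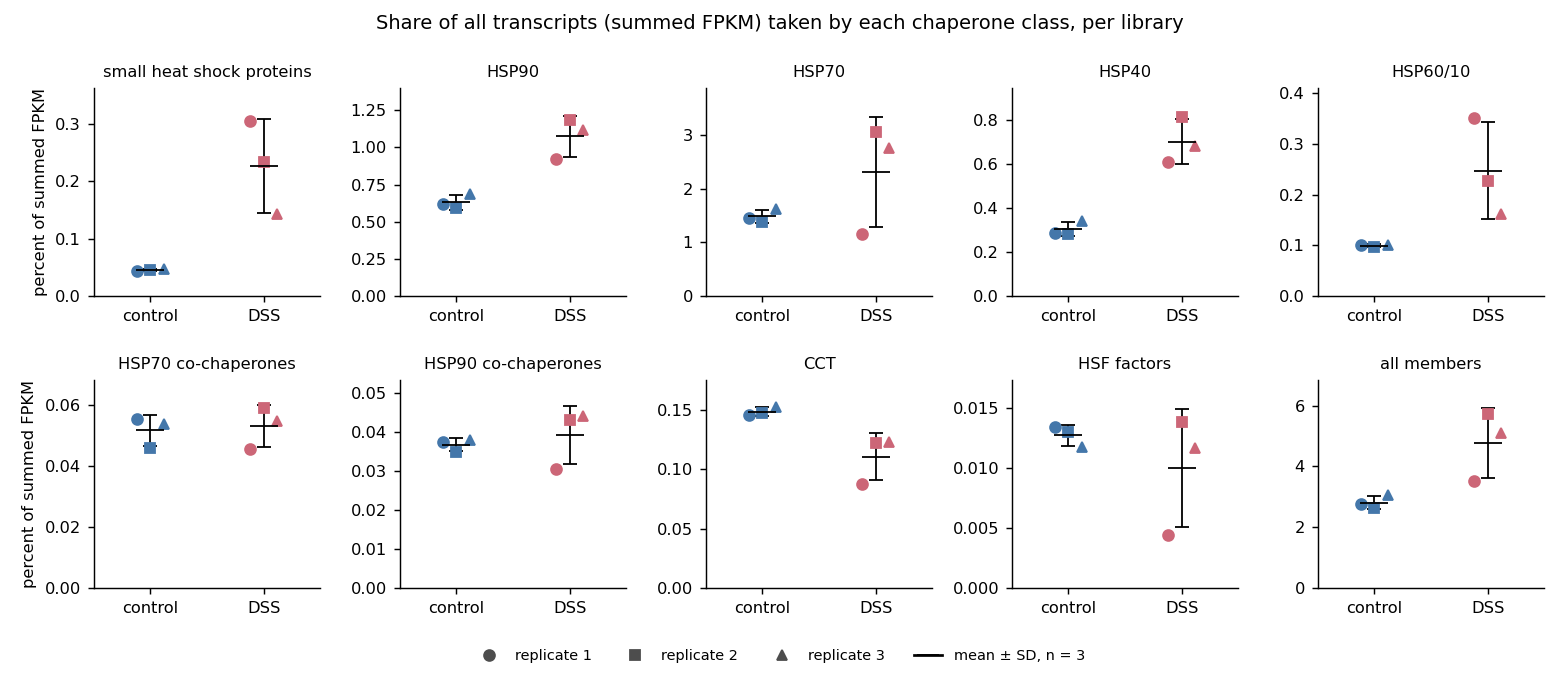
Summed FPKM of each class as a percent of the summed FPKM of all genes, per library (symbols by replicate number), with the mean ± SD of 3 libraries per group. The groups are separate upward for the small heat shock proteins, HSP90, HSP40, HSP60/10 and all members together and downward for CCT, and they overlap for HSP70, both co-chaperone classes and the HSF factors. The share of the small heat shock proteins is almost wholly Hspb1, since Hspb8 and Cryab lay between 0 and 2.48 FPKM.

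The DSS libraries did not rank the members in 1 order. Of the 13 members that were separate upward, 4 (Hspb1, Hspe1, Hsp90aa1 and Dnajb4) were highest in DSS replicate 1, 8 in replicate 2 and 1 (Fkbp4) in replicate 3. In 12 of the 13 the highest-to-lowest ratio was larger among DSS than among control libraries, and the same held for 29 of all 38 tested members. That share was not computed over all tested genes, so the wider spread is not shown to be particular to the members. Leaving DSS replicate 1 out of the test raised the members called higher from 2 to 13. All genes called higher then numbered 132 in place of 9, which is 1.08%, and those called lower 281 in place of 18. The 13 were Hspb1, Dnajb1, Dnaja1, Dnaja4, Hspa1a, Hspa1b, Hsph1, Hsp90aa1, Hsp90ab1, Hspd1, Hspe1, Bag3 and Fkbp4, and Cct4 was then called lower. That count rests on 2 DSS libraries. The part of the length pattern of DSS replicate 1 in the members' values was not tested beyond these fits.

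**Figure D4:**
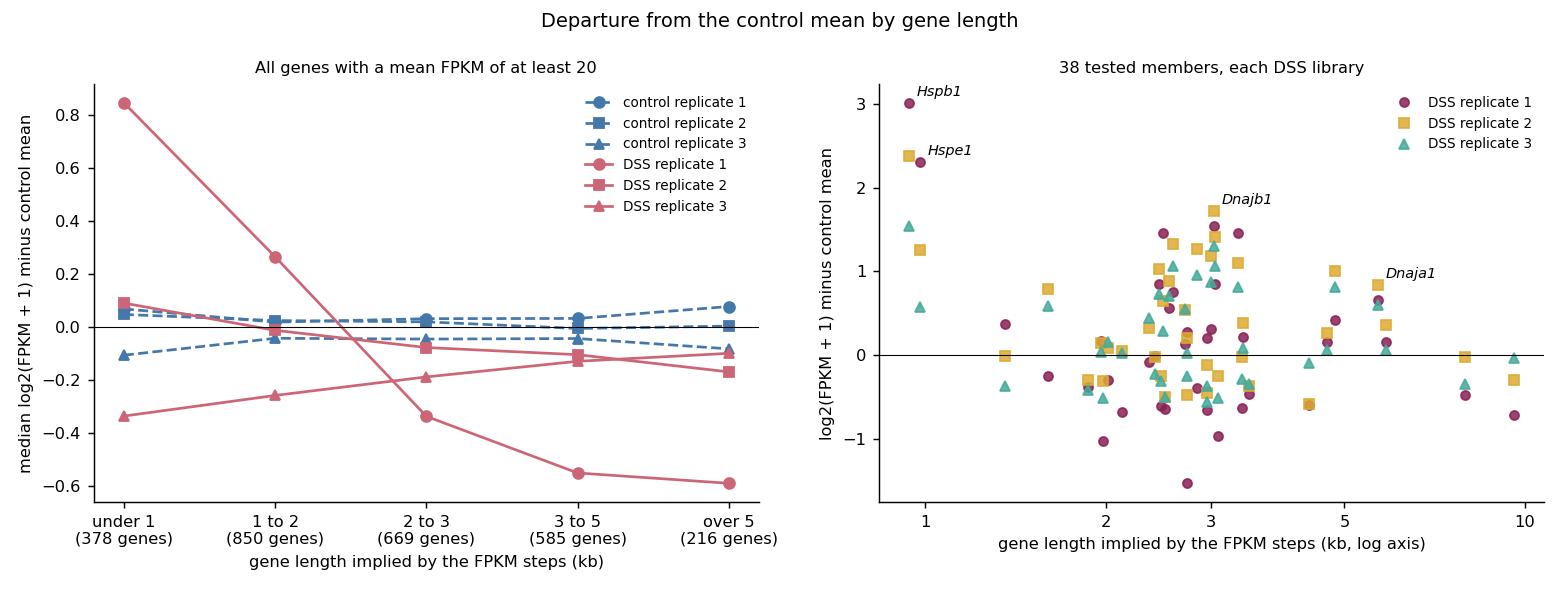
Left, the median departure of log2(FPKM + 1) from the control mean (for a control, the mean of the other controls) in 5 bins of gene length, per library, over genes with a mean of at least 20 FPKM. Right, the same departure of the 38 tested members in each DSS library against gene length (log axis); in DSS replicate 1 all genes under 1 kb have a median of 0.85 while Hspb1 lies at 3.02 and Hspe1 at 2.31.

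The heat shock elements are set beside the levels as a description, without a test. The 3-unit element was found for 5 of 32 members with a window, in 0.662% of the 27025 genes with one. Of those 5, Hspd1, Hspe1 and Hsph1 were separate upward. The Hspd1 and Hspe1 windows overlap, and their matches are the same stretch, so 1 element is counted for both. In contrast, Chordc1, with 3 overlapping matches in the stretch printed above, measured 8.13 to 11.8 FPKM in controls and 9.68 to 12.1 in DSS. Dnajb6, with 1 match, measured 57.8 to 65.7 and 40.9 to 70.4 FPKM. The 2-unit element was found for 17 of the 32, in 17.0% of all genes with a window and 14.7% of the 9381 that were tested. It was present for 10 of the 11 members with a window that were separate upward and for 7 of the other 21. Some genes have several windows, which gives them more chances of a match; among members with 1 window the counts were 5 of 5 and 4 of 17.

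Beyond the 40, 82 other chaperone, co-chaperone and HSF1 target genes were listed and 71 were tested. None passed limma's test at an adjusted p of 0.05, 8 had an unadjusted p under 0.05, 30 were higher and 41 lower in value, and the median log2 change was −0.08. In 4 of the 71 the DSS libraries were all above the controls and in 11 all below, 5.63% and 15.5% beside 6.35% and 9.6% of all tested genes. Without DSS replicate 1 the count of calls was 3 (Cryaa, Fkbp5 and Zfand2a). Zfand2a, a heat- and arsenite-inducible gene of proteasome handling, measured 18.2, 16.2 and 19.95 FPKM in controls and 23.8, 57.6 and 52.7 FPKM in DSS libraries. It was separate upward (log2 change 1.17 ± 0.317 SE, limma adjusted p = 0.217). Cryaa, a crystallin of the small heat shock family, measured 8.89, 11.2 and 7.58 FPKM in controls and 4.48, 1.77 and 2.74 FPKM in DSS libraries, and was separate downward (log2 change −1.40 ± 0.299 SE, limma adjusted p = 0.132). Hspa2, an HSP70 known from germ cells, measured 33.5, 42.9 and 34.8 FPKM in controls and 12.7, 26.4 and 24.7 FPKM in DSS libraries (log2 change −0.83 ± 0.283 SE, limma adjusted p = 0.359). The endoplasmic reticulum chaperone Hspa5, which is not among the 3 with the smallest p, was separate downward. It measured 1008 to 1088 FPKM in controls and 530 to 960 in DSS (limma adjusted p = 0.696).

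Markers of other cells and of sample handling were read in the same libraries. Their counts of separate genes stand beside shares of 6.35% upward and 9.6% downward over all tested genes. Immediate early genes, which tissue dissociation is known to induce, had 3 of 17 separate upward (Fos, Klf6 and Btg2) and 2 downward (Egr2 and Nr4a1), with a median log2 change of 0.01 and none called (4 had an unadjusted p under 0.05). Their summed level was 20152 to 21565 FPKM in controls and 13725, 24054 and 23473 FPKM in DSS replicates 1, 2 and 3. Hspa1b and Hspa8 had that order, as did other members that were separate upward (Hspa1a) or downward (Hspa9). Within the list the order was not uniform, since Fos and Btg2 were highest in DSS replicate 1. Btg2 measured 242 to 274 FPKM in controls and 475 to 579 in DSS (log2 change 0.98 ± 0.199 SE, limma adjusted p = 0.121). Egr2 measured 2.74 to 5.31 and 0.105 to 2.10 FPKM (−1.54 ± 0.447 SE, limma adjusted p = 0.258), and Jun 717 to 802 and 776 to 1696 FPKM (0.73 ± 0.305 SE, limma adjusted p = 0.497).

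The summed level of 13 neutrophil markers was 3.75 to 11.65 FPKM in controls and 69.0 to 118 in DSS, with 3 separate upward. These 3, S100a8, S100a9 and Retnlg, passed limma's test (adjusted p = 8.45e-05 to 0.0452) and are among the 9 genes called higher in all. Ly6g, Camp, Ltf and Elane were at 0 in at least 1 DSS library, and Elane reached 4.13 FPKM in DSS replicate 3. For 7 B and plasma cell markers it was 26.6 to 39.2 and 49.98 to 291 FPKM, with 3 separate upward, Jchain highest. For 13 epithelial markers it was 20.6 to 40.6 and 56.2 to 61.9 FPKM, with 4 separate upward, Lgals4 highest in DSS. Macrophage markers (12 genes) summed to 19.5 to 24.5 and 23.9 to 57.6 FPKM with 2 separate upward, T cell markers (8) to 24.5 to 35.4 and 22.1 to 62.7 with none, and stromal markers (10) to 24.1 to 40.2 and 15.1 to 37.0 with 1 separate downward. The difference in mean level between the groups was 914 FPKM for Hspb1 and 1700.5 FPKM for Dnajb1. The part of these other cells and of handling in the chaperone levels was not tested.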

How the data were processed

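Colonic ILC2 RNA was measured in 3 control and 3 DSS libraries. Per the labels' protocols, TRIzol RNA was made into full-length cDNA (SMART-Seq HT) and paired-end Nextera XT libraries, which keep no strand. Per the submitters' processing notes, cutadapt 1.9, HISAT2 2.2.1 and build mm10 were used; which tool and annotation counted the reads is not given in the sources used here. Values were deposited as FPKM by gene symbol, scaled for gene length and depth. Samples were grouped by their titles. Each value was a whole multiple of a step per gene (tolerance 0.001 fragments) for 22701 of 22701 genes above 0, which gave the depths, gene lengths and fragments used for a voom alternative. The fragments behind the members in 1 library ran from 0 to 275681, so that values near 1 FPKM rest on few.

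Log2(FPKM + 1) values of genes averaging at least 1 FPKM were tested two-sided with limma 3.58.1 (R 4.3.3, with a mean-variance trend), with Benjamini-Hochberg adjustment over all 12187 and a threshold of 0.05. The script was tested on simulated data. A log2 change with a pseudocount of 1 understates the change of weakly expressed genes. Full statistics are given for members called, or separate with a log2 change of at least 0.5; of the other chaperone genes and of the immediate early genes, for the 3 with the smallest p. Of the marker lists the member highest in DSS is named, and those called over all genes were added after their values were seen. The members and lists were chosen with earlier results of these data known.

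Deviations of same-numbered control and DSS libraries correlated at 0.189, 0.262 and 0.545, each above 0.1, which meets the rule used here for pairs. The main test is nevertheless unpaired, with no block, and the pairing enters only as the replicate block alternative. The labels do not state a pairing, and replicates 1 and 2 crossed (0.345 and 0.101) meet the same rule. Positions and overlaps are from GENCODE M21 (GRCm38), promoter windows from RefSeq. Tables and figures used Python 3.11.15, pandas 2.3.3 and matplotlib 3.10.9. Alternatives were other pseudocounts, filters, scalings and variance settings, library weights, a replicate block, voom and leaving out libraries; values centred by gene length, in 10 bins of genes per library, were added after seeing the data.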

Additional observations from a re-analysis of the deposited data

How the results depend on the processing

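No log2 change of the 15 members with full statistics changed sign in 315 recomputed values (15 members under 21 alternatives). Of these, 271 kept their side of the threshold, 21 lost a call (Hspb1 or Dnajb1) and 23 gained one, 22 of them with library weights or without DSS replicate 1. The number of members called higher, 2 in the main test, was 1 with a pseudocount of 0.1 and 0 without a filter, after median-of-ratios scaling, without the trend and with both replicates 3 left out. With library weights 17 were called higher and 7 lower, with 3286 genes called in all and 17 among the other chaperone genes; the estimate of these weights did not converge. Over all genes 14 were called after scaling to an equal FPKM total, 9 after median-of-ratios scaling, 4 without the trend and 5 without both replicates 3. A block for the replicate number (pairing) gave 22 genes and 1 member (Hspb1), and Dnajb1 was the 1 member call that changed. Centring by gene length gave 14 genes and 0 members, and with the block 41 genes and 1 member. Leaving out 1 library gave 4 to 413 genes, 0 to 13 members higher, 0 to 1 lower and 0 to 3 other chaperone genes, with the high end each time without DSS replicate 1. The members separate upward were 13 to 16 and downward 8 to 10 in these 6 cases, while the share of all tested genes rose to 8.13% to 16.9% upward and 11.9% to 19.9% downward, from 6.35% and 9.6%. With library weights the log2 change of Hspa1a was 1.20 (0.79 in the main test) and that of Cct2 −0.32 (−0.62). The median of all genes moved from 0.03 to −0.11 without DSS replicate 3. The causes of these changes were not tested, and voom changed no member call. With 3 libraries a group, a member that missed the threshold is not shown to be unchanged.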

Other observations

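Ubb, which encodes a polyubiquitin that heat is known to induce, was the most abundant of the listed HSF1 targets outside the chaperones, at 2487, 2395 and 2524 FPKM in control replicates 1, 2 and 3 and 5462, 4060 and 2819 FPKM in DSS replicates 1, 2 and 3. The groups were separate without passing limma's test (adjusted p = 0.497), and the order of the DSS libraries was that of Hspb1 and Hspe1. Ubb is 1.52 kb long. The median departure of the 850 genes of 1 to 2 kb with a mean of at least 20 FPKM had that order too. It was 0.27, −0.01 and −0.26 in DSS replicates 1, 2 and 3. Single genes of that length, such as Hspa8 and Cct2, had another order. The part of gene length in the values of Ubb was not tested. Pfdn5, a subunit of the prefoldin that passes actin and tubulin to CCT, measured 230, 240 and 258 FPKM in controls and 600, 332 and 246 FPKM in DSS libraries, with DSS replicate 1 highest and the groups overlapping. At 1.07 kb it belongs to the same length bin. Dedd2 and Ahsa2 were separate upward, at 23.2 to 32.0 and 34.5 to 49.0 FPKM, and at 6.45 to 8.29 and 8.86 to 12.3 FPKM. Neither passed limma's test (adjusted p = 0.462 and 0.472). Of the 7 tested HSF1 targets outside the chaperones, 3 (Zfand2a, Ubb and Dedd2) were separate upward and 4 overlapped. In value, 4 of these 7 were higher and 3 lower. Of the 24 other co-chaperones, 1 (Ahsa2) was separate upward and 3 downward. The shares of all tested genes were 6.35% upward and 9.6% downward, and with so few genes no result is read from these counts. Ubb, Pfdn5, Dedd2 and Ahsa2 were chosen after their values were seen.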
